A study of Mus musculus with 2 samples.

Results

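The kinetochore, the spindle checkpoint, the mitotic kinases and the machinery of cytokinesis were represented by 55 genes, which are described here in gastric organoids of young and aged mice. A gene belonged to the group when a probe set of the array carried its symbol and no other, and all 55 were measured, each by 1 probe set, among 19505 named genes in all. Gastric organoids, cultures of stomach epithelium grown in Matrigel, had been established from C57BL/6 mice that were 2 to 4 months old (young) or over 18 months old (aged), and total RNA of each group was hybridized to 1 Clariom S array. Both cultures received a medium that contained Wnt3a, R-Spondin1, Chir99021, EGF, Noggin, FGF10, valproic acid, SB431542 and the ROCK inhibitor Y-27632. How many mice contributed to an array and at which passage RNA was taken are not given in the sources used here, and age cannot be told apart from any other difference between these 2 cultures. With 1 array per group no difference could be tested, so every count and difference below is a description of these 2 arrays.

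The kinetochore is a stack of protein complexes that forms on the centromere of each chromosome. Its inner layer sits on nucleosomes with the histone variant CENP-A, its outer layer grips spindle microtubules, and the spindle checkpoint, assembled on kinetochores without microtubules, keeps the anaphase-promoting complex inactive until all chromosomes are attached. Kinases of the Aurora, Polo and NIMA families drive these steps. Many, though not all, genes of this machinery are transcribed mainly in G2 and mitosis, and the stem and progenitor cells of the gastric glands are the cells that normally divide.

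Signals are given on the log2 scale of the authors' normalization, the young array first wherever a pair of values stands without a label, and differences as aged minus young. Olfactory and vomeronasal receptor genes, 1412 in number, served as a measure of background, and their 95th percentile (5.36 in the young and 5.54 in the aged culture) is called the background reference. The differences of these receptor genes had an SD of 0.51, the 1 measure of noise at the dim end. A fold is given as a lower bound ("at least") where a gene was under the reference on the young array, and signals of different genes are not compared with each other, since each probe set has its own brightness. As a check of the tissue, all 15 measured epithelial markers were above the reference on both arrays, while of the leukocyte markers 1 of 11 was above it (*Cd14*, lower on the aged array), of the fibroblast markers 2 of 9 and of the endothelial markers 0 of 7. The 2 fibroblast markers were *Col1a1*, just above the reference on both arrays (5.92 and 6.15), and *Lum*, above it only on the aged array (5.28 and 5.65). *Dcn*, like *Ptprc* and *Pecam1*, was above the reference on neither array.

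Most of the 55 genes had higher signals on the aged array. The group was chosen with earlier results of these data known. Of 40 other measured genes of the kinetochore and mitosis, 18 were at least 2-fold higher, with a median difference of 0.78. Of the 55 genes, 44 were at least 2-fold higher on the aged array and 0 at least 2-fold lower. A further 10 stayed within 2-fold, and 1, *Ska1*, was under the reference on both arrays. Over all 19505 genes, 6.72% were at least 2-fold higher and 7.02% at least 2-fold lower by the same rule. The median difference of the 55 genes was 2.05, a 4.15-fold higher signal, with quartiles of 1.08 and 2.72, against a median of 0.04 and quartiles of −0.35 and 0.42 over all genes. Among the 19505 genes, 1% differed by 2.69 or more, and 14 of the 55 were among them. RNA came from whole cultures, in which a larger share of dividing cells and more of this RNA per dividing cell cannot be told apart.

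The young array was close to its limit of detection for part of these genes. On the aged array 54 of the 55 were above the reference and on the young array 46, so that 8 genes have only a bound. With every signal under the reference set to it, 42 genes were at least 2-fold higher and 0 at least 2-fold lower (6.29% and 6.07% of all genes by that rule), and the median was 1.95. The 2 genes lost by that rule were *Dsn1* and *Spc24*, whose measured differences were also the closest above the 2-fold limit. At the other end, 27 genes were at least 4-fold higher even with signals under the reference set to it, against 1.79% of all genes, and 8 were at least 8-fold higher, against 0.682% of all genes. The difference bore little relation to how bright a gene was on the young array (Spearman's rho of −0.10 across the 55 genes, which share both arrays and are no independent samples).

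**Figure D1:**
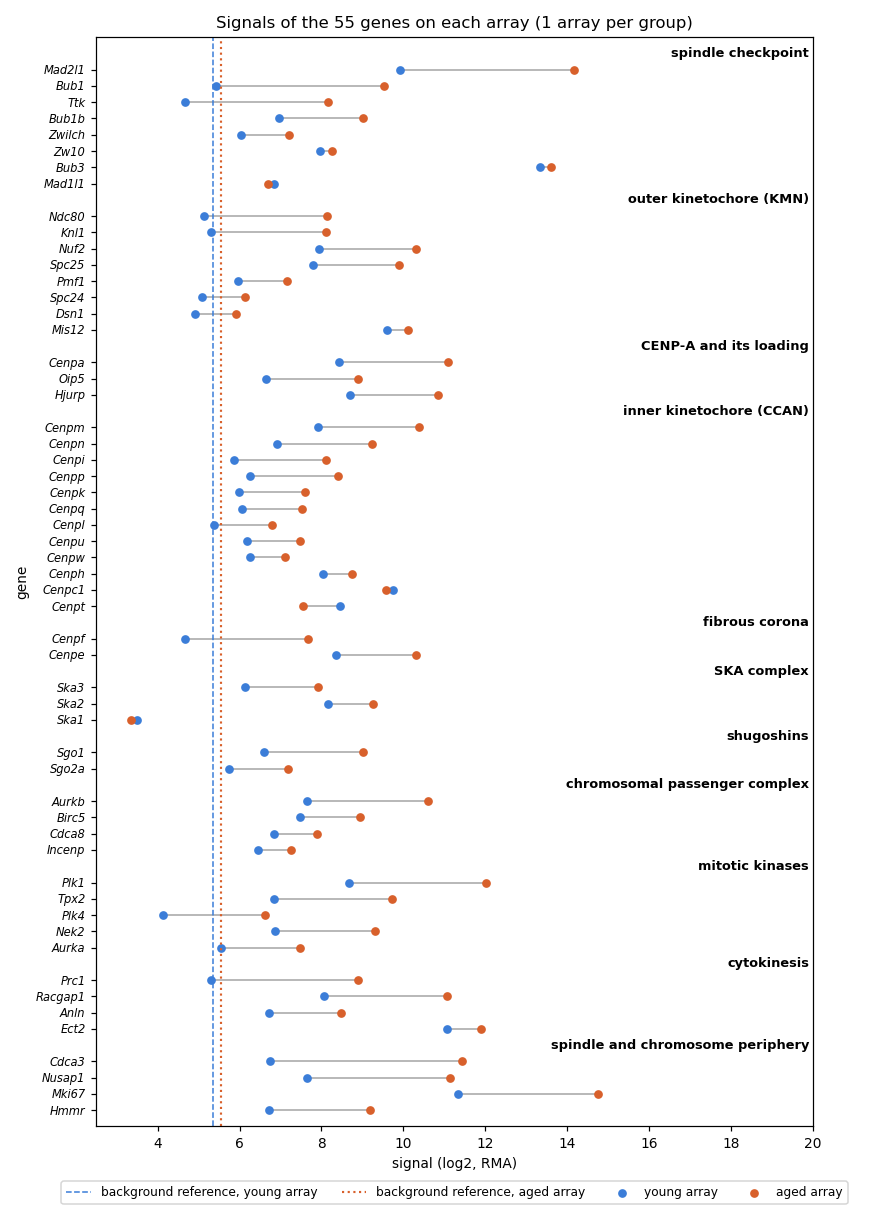
Signal (log2, horizontal axis) of each of the 55 genes on the young array (blue) and the aged array (orange), 1 array per group, grouped by complex and ordered by difference, with the background reference of each array as a vertical line. The aged signal lies to the right in 51 genes, and *Ska1* lies left of both references.

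The spindle checkpoint was split. *Mad2l1*, *Bub1* and *Ttk* were among the genes with the largest differences of all, whereas *Mad1l1*, *Bub3* and *Zw10*, which encode their partners or docking factors, were at nearly the same level on both arrays. *Mad2l1*, which encodes the inhibitor of the anaphase-promoting complex activator Cdc20, had signals of 9.92 (young) and 14.15 (aged), which is 18.9-fold higher. Its partner *Mad1l1*, whose product holds Mad2 at unattached kinetochores, was at 6.85 and 6.69, a difference of −0.16. *Bub1*, a kinase gene of the checkpoint, was at 5.44 and 9.52 (16.9-fold higher), just above the reference on the young array. *Ttk*, the gene for the kinase Mps1 that starts checkpoint signaling, went from 4.67, under the reference, to 8.17 (at least 6.99-fold higher). *Bub1b*, which encodes the checkpoint protein BubR1, was 4.16-fold higher (6.95 and 9.01), 2.03 less on the log2 scale than its paralog *Bub1*. *Bub3*, the adaptor that carries both Bub1 and BubR1 to the kinetochore, was bright on both arrays (13.33 and 13.59). Its difference of 0.26, like that of 0.30 for *Zw10*, turned below 0 when the arrays were centered on expression reference genes (−0.12 and −0.09). *Zw10* (7.97 and 8.27) and *Zwilch* (6.02 and 7.20, 2.25-fold higher) encode parts of one complex that brings dynein to kinetochores, and *Kntc1*, the gene for its remaining subunit Rod, was 6.73-fold higher (5.45 and 8.20). The median over the 8 checkpoint genes was 1.61, and 5 of them were at least 2-fold higher.

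In the outer kinetochore, 7 of 8 genes were at least 2-fold higher, with a median of 1.64. With signals under the reference set to it, 5 of the 8 were. *Ndc80* and *Nuf2* encode the proteins that form the microtubule-binding end of the Ndc80 complex. *Ndc80* was under the reference on the young array (5.14 and 8.13, at least 6.83-fold higher) and *Nuf2* above it on both (7.93 and 10.31, 5.20-fold higher). At the opposite end of the same complex, *Spc25* was 4.25-fold higher (7.80 and 9.89) and *Spc24* at least 1.69-fold higher (5.08 and 6.12). *Knl1*, the scaffold that docks Bub1 and Bub3, was at 5.31 and 8.10 (at least 6.67-fold higher). The Mis12 complex, which anchors the others to the inner kinetochore, held the smallest difference of the 8 genes, that of *Mis12* itself (9.59 and 10.11, 1.44-fold higher), beside *Dsn1* at 4.91 and 5.92 (at least 1.47-fold) and *Pmf1* at 5.96 and 7.15 (2.29-fold). Its remaining subunit gene *Nsl1*, which is outside the group, was 3.10-fold higher.

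The 3 genes grouped as CENP-A and its loading differed by similar amounts. *Cenpa*, the histone variant itself, was at 8.43 and 11.08 (6.31-fold higher). *Hjurp*, its chaperone, was at 8.69 and 10.85 (4.46-fold higher), and *Oip5*, a subunit of the Mis18 complex that licenses the centromere for new CENP-A, was 4.73-fold higher. *Mis18a*, another subunit of that complex, differed by less than 2-fold (0.83).

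The inner kinetochore, the constitutive network that binds CENP-A nucleosomes, held both the lowest difference of the group and several large ones. Of its 12 genes, 8 were at least 2-fold higher and all 12 were above the reference on both arrays, with a median of 1.43. *Cenpt*, which encodes one of the anchors of the Ndc80 complex, was the 1 gene of the 55 lower on the aged array by more than the receptor SD of 0.51, from 8.45 to 7.54 (1.88-fold lower), which is still inside the 2-fold limit. *Cenpw*, the gene for the histone-fold partner of CENP-T, was at 6.27 and 7.11 (1.80-fold higher), so the signals of this pair differed in opposite directions. *Cenpc1*, the other anchor, which binds CENP-A nucleosomes directly, was at 9.74 and 9.57 (−0.17). *Cenpm* was at 7.92 and 10.39 (5.52-fold higher) and *Cenpi*, the gene for a protein it binds, 4.74-fold higher. *Cenph* and *Cenpk*, which belong to the same subcomplex, were 1.61-fold and 3.06-fold higher. *Cenpn*, whose product reads the CENP-A nucleosome, and its partner *Cenpl* were 4.98-fold and 2.63-fold higher, and *Cenpp*, *Cenpq* and *Cenpu* of a further subcomplex 4.41-fold, 2.76-fold and 2.45-fold higher.

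Genes of the fibrous corona, the SKA complex and the shugoshins had higher signals on the aged array, except *Ska1*, which was not above the reference. *Cenpe*, the kinesin of the fibrous corona, was at 8.35 and 10.30 (3.86-fold higher), and *Cenpf*, its neighbor in the corona, at 4.67 and 7.67 (at least 4.94-fold higher). Of the SKA complex, which keeps kinetochores on shrinking microtubules, *Ska3* was 3.45-fold higher (6.13 and 7.92) and *Ska2* 2.15-fold (8.16 and 9.27). *Ska1*, under the reference on both arrays (3.49 and 3.36), has no fold. *Sgo1*, which encodes the guardian of centromeric cohesin, was at 6.60 and 9.01 (5.34-fold higher), and *Sgo2a*, the second shugoshin, at 5.75 and 7.17 (2.68-fold higher).

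The chromosomal passenger complex, which releases wrongly attached microtubules, was uneven. Its kinase *Aurkb* was at 7.66 and 10.60 (7.68-fold higher), whereas the scaffold *Incenp*, which activates that kinase, was at 6.45 and 7.27 (1.76-fold higher). *Birc5*, the survivin gene, was 2.77-fold higher and *Cdca8*, which encodes borealin, 2.06-fold higher (6.84 and 7.88), close to the limit.

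The mitotic kinases were grouped with *Tpx2*, the activator of Aurora A, and all 5 genes were at least 2-fold higher. *Plk1*, the Polo-like kinase of mitotic entry, centrosome maturation and cytokinesis, was at 8.68 and 12.02 (10.1-fold higher). *Tpx2* was at 6.85 and 9.71 (7.27-fold higher) and *Aurka*, the kinase it activates on the spindle, at 5.54 and 7.49 (3.87-fold higher). *Nek2*, a kinase that parts the centrosomes, was 5.43-fold higher (6.85 and 9.29). *Plk4*, the kinase of centriole duplication, was under the reference at 4.13 on the young array and at 6.61 on the aged array (at least 2.38-fold higher).

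Genes of the central spindle and the contractile ring followed. *Prc1*, which bundles the antiparallel microtubules of the midzone, was just under the reference at 5.30 on the young array and at 8.89 on the aged array (at least 11.5-fold higher). *Racgap1*, a part of the centralspindlin complex, was at 8.06 and 11.07 (8.06-fold higher), and the ring scaffold *Anln* 3.38-fold higher. *Ect2*, the exchange factor that centralspindlin recruits to activate RhoA, was bright on both arrays and differed less (11.07 and 11.88, 1.75-fold higher).

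The 4 remaining genes were grouped as spindle and chromosome periphery, though they form no single complex. Apart from *Cdca3*, they act on the spindle or the surface of mitotic chromosomes. Their median of 3.46 was the highest of the 11 complexes as divided here. *Cdca3*, a regulator of entry into mitosis, had the largest difference of the group with signals of 6.74 and 11.42 (25.7-fold higher). *Nusap1*, which attaches microtubules to chromatin, was at 7.64 and 11.15 (11.3-fold higher). *Mki67*, which encodes the proliferation marker Ki-67 that coats mitotic chromosomes, was at 11.33 and 14.75 (10.7-fold higher), and *Hmmr*, a spindle assembly factor, was 5.52-fold higher (6.72 and 9.19).

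**Figure D2:**
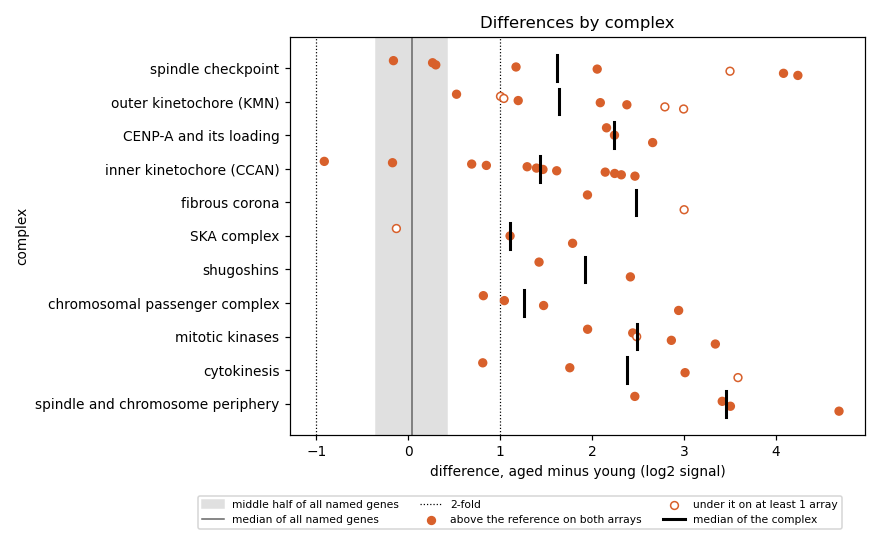
Difference (aged minus young, log2 signal, horizontal axis) of each gene by complex, filled where the gene was above the background reference on both arrays and open where it was not, with a black bar at the median of each complex. The gray band spans the quartiles of all 19505 genes (−0.35 to 0.42), and the medians of the complexes run from 1.11 (SKA complex) to 3.46 (spindle and chromosome periphery).

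Subunits of the same particle therefore differed by unequal amounts. Of the pairs examined, *Mad1l1* and *Mad2l1* were furthest apart, with a gap of 4.40 on the log2 scale between their differences, followed by *Bub3* and *Bub1* with 3.82. *Ect2* and *Racgap1* were 2.20 apart, *Aurkb* and *Incenp* 2.12 and *Cenpt* and *Cenpw* 1.76. The closest pairs were *Cenpq* and *Cenpu* (0.17) and *Cenpi* and *Cenpm* (0.22). The SD of 0.51 among receptor genes belongs to differences of single dim genes and gives no measure of noise for such gaps. All 6 genes whose signals differed by less than 0.5 in either direction or were lower on the aged array (*Mad1l1*, *Bub3*, *Zw10*, *Cenpc1*, *Cenpt* and *Ska1*) were outside the phase lists of the Seurat package, which hold human genes known to peak in S phase or in G2 and mitosis. Of the 55 genes, 20 are on its G2–M list, of which 19 were at least 2-fold higher with a median of 2.56, and the exception was *Ect2*. The 34 genes on neither list had a median of 1.44, and 24 were at least 2-fold higher. The complete lists, which include genes of the group, were less one-sided. Of 53 measured genes of the G2–M list, 39 passed the 2-fold rule upward and 2 downward, and their median was 2.11. Of 40 measured genes of the S list, 18 passed it upward and 0 downward, and their median was 0.93.

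Genes of chromosomes 6 and 12 had higher signals on the aged array as a whole, with medians of 0.68 and 0.60 over their genes above the reference, while the other 18 chromosomes had medians from −0.10 to 0.03. The 55 genes lie on 18 chromosomes and none on chromosome 12, but *Cdca3* and *Mad2l1*, those with the largest differences, are both on chromosome 6. Without them, 42 of 53 genes were at least 2-fold higher with a median of 1.95, and the median of the 8 checkpoint genes became 1.17 without *Mad2l1*. Their differences of 4.68 and 4.24 also exceeded the chromosome's median. For each gene, the 10 nearest genes above the reference (5 on each side) were taken as well. The medians of these neighborhoods ran from −1.01 to 0.84 with a median of −0.10, and 47 of the 55 genes were at least 2-fold above their own neighborhood, as were 11.4% of the 11558 genes above the reference.

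**Figure D3:**
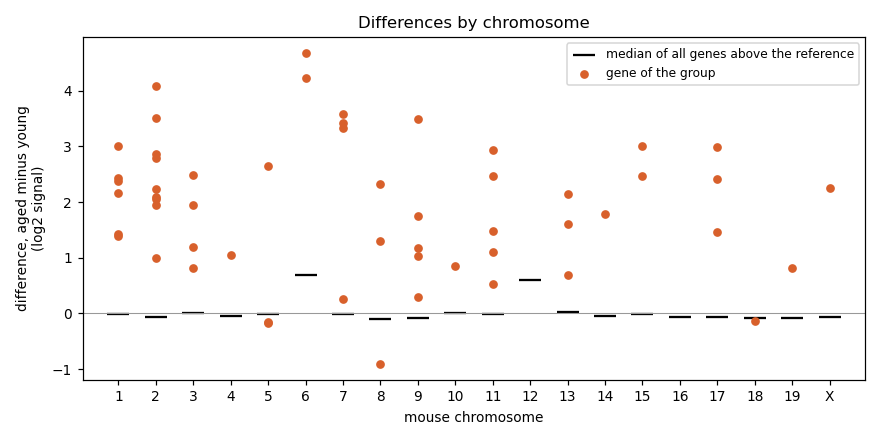
Difference (aged minus young, log2 signal, vertical axis) of each of the 55 genes (orange points) by mouse chromosome, with the median of all genes above the background reference on that chromosome as a black bar. The bars of chromosomes 6 and 12 stand at 0.68 and 0.60 and those of the others between −0.10 and 0.03, and the 2 points on chromosome 6 are the highest.

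The promoters of these genes were searched for 3 short motifs known from cell cycle genes. These were the CHR element (cell cycle genes homology region, TTTGAA or TTCGAA), which binds the MuvB core of the DREAM complex in human and mouse cells and is typical of genes transcribed in G2 and mitosis, the CCAAT box (CCAAT), and the core of the E2F site (TTNNCGC, where each N is C or G), typical of genes of the G1–S transition. Both strands were read and matches were exact. RefSeq promoter windows (build GRCm38.p6, from 250 bases before to 50 bases after an annotated start) were found for 49 of the 55 genes, with 56 windows, since 6 genes have several. A CHR element was present in 32 of the 56 windows (57.1%), compared with 14.3% of the 11144 windows of genes above the reference on the aged array and 19.2% of all 32851 windows. It lay within 50 bases of the start in 26 windows (46.4%), against 3.98% of those 11144 windows. CCAAT boxes were in 73.2% of the windows of the group and in 38.8% of the 11144, E2F cores in 26.8% and 16.4%, and a CHR element together with a CCAAT box in 48.2% and 6.13%. The 24 genes with a CHR element within 50 bases of a start, a limit chosen after the positions were seen, had a median difference of 2.37 and the 25 without one 1.46, with ranges that overlap (0.26 to 4.68 and −0.91 to 4.24). The 14 genes with an E2F core had a median of 1.41 (from −0.17 to 3.41) and the 35 without one 2.16 (from −0.91 to 4.68), and for the CCAAT box the medians were 2.09 in 35 genes with one and 1.96 in 14 without. A match describes letters and is not evidence of binding, which was not measured. The share of the group's windows with a motif follows from the choice of mitotic genes and does not depend on the signals of these arrays.

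**Figure D4:**
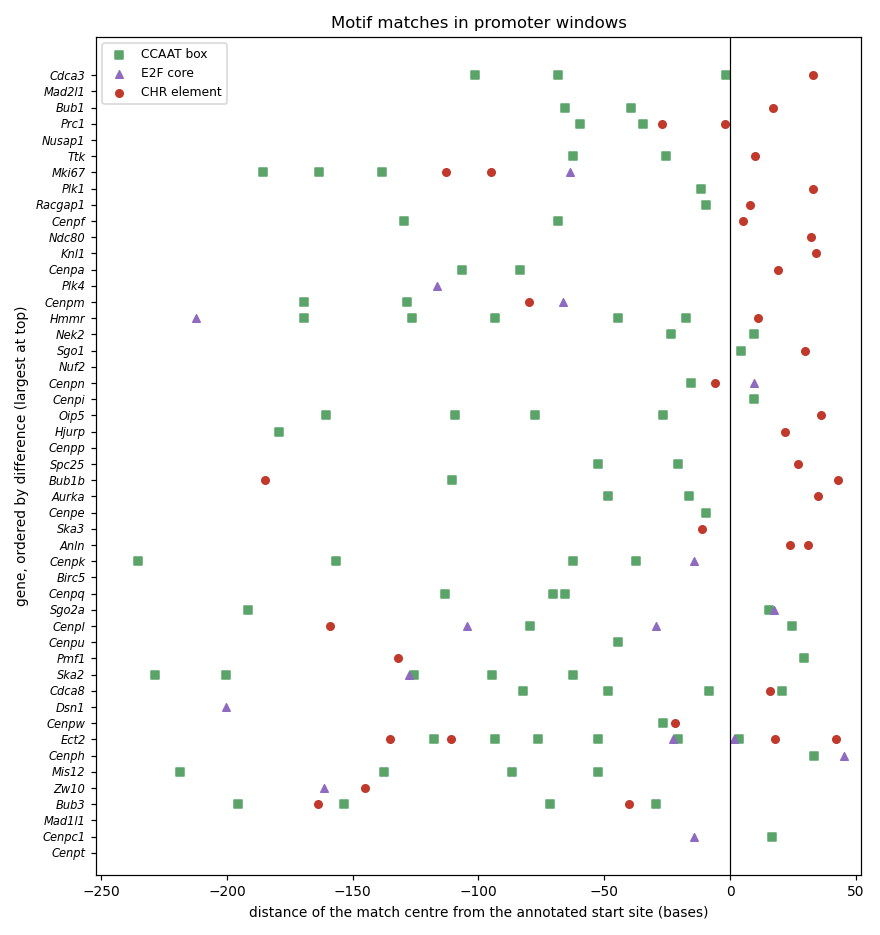
Positions of exact motif matches in the RefSeq promoter windows of 49 genes, ordered from the largest difference (top) to the lowest, with the distance of the match from the annotated start site in bases on the horizontal axis and several windows of a gene drawn on one line. CHR elements gather around the start, within 50 bases of it in 26 of 56 windows, and 7 genes, *Mad2l1*, *Nusap1* and *Mad1l1* among them, show no match.

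The elements themselves are shown for the 8 genes with the largest differences among those above the reference on both arrays that have one, since they let the surrounding bases be compared. Each stretch holds 30 bases 5′ to 3′ on the strand on which the element was matched, and the capitals mark the CHR element. For *Bub1* and *Cenpm* the element reads the same on both strands. In *Cdca3*, *Bub1*, *Plk1*, *Racgap1*, *Cenpa* and *Hmmr* the element begins 31, 15, 31, 6, 17 and 9 bases into the transcript, and in *Mki67* and *Cenpm* it begins at positions −98 and −83. The stretches lie at chr6:124830194-124830223, chr2:127831828-127831857, chr7:135716460-135716489, chr7:122159453-122159482, chr15:99651634-99651663, chr5:30666890-30666919, chr15:82244402-82244431 and chr11:40733412-40733441 (GRCm38.p6), in the order of the lines, on the plus strand for *Cdca3*, *Plk1* and *Cenpa* and on the minus strand for the others.
Cdca3: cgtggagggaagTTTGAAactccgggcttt
Bub1: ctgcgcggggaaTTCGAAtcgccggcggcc
Mki67: ccgccgttttggTTTGAAtcgggcgggctg
Plk1: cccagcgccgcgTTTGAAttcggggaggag
Racgap1: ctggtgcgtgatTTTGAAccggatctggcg
Cenpa: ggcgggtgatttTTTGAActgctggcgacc
Cenpm: tgggcgttccagTTCGAAcgtggctttccc
Hmmr: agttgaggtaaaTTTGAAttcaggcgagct

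The 4 genes with the largest differences and the 2 with the smallest ones, among those above the reference on both arrays, are shown with the 250 bases before their annotated start (the most upstream one where RefSeq has several), so that promoters of genes that differed and did not differ can be read side by side. Capitals mark matches of the CCAAT box or the E2F core on either strand. *Cdca3* (chr6:124829926-124830175, plus strand) and *Bub1* (chr2:127831860-127832109, minus strand) have 2 CCAAT boxes each in this stretch, 1 per strand, upstream of the CHR elements shown above. *Mad2l1* (chr6:66534971-66535220, plus strand) and *Nusap1* (chr2:119618048-119618297, plus strand), though 18.9-fold and 11.3-fold higher on the aged array, hold none of the 3 motifs in the window. *Mad1l1*, at nearly the same level on both arrays (chr5:140321553-140321802, minus strand) has none either, and *Cenpc1* (chr5:86065584-86065833, minus strand) has an E2F core on the other strand that begins 18 bases before the start. A further CCAAT box crosses the start of *Cdca3*, and *Cenpc1* has one within its transcript.
Cdca3: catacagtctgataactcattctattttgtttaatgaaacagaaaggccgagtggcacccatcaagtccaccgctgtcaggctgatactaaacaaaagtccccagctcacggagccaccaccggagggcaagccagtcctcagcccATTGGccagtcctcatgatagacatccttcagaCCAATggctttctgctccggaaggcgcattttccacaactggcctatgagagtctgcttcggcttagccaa
Mad2l1: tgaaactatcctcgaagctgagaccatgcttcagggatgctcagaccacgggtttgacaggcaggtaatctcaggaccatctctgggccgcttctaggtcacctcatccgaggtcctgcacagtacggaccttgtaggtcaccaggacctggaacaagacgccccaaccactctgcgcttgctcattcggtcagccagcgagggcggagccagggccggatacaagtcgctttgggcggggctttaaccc
Bub1: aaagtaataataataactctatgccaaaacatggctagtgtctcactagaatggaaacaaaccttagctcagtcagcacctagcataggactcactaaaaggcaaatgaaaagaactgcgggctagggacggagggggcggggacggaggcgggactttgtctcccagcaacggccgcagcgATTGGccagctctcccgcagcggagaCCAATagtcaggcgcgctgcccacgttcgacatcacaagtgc
Nusap1: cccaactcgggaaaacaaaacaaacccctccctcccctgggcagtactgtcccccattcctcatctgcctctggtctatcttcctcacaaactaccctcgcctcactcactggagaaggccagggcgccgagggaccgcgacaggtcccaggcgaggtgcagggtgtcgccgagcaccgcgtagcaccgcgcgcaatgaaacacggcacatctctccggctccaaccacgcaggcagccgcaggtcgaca
Mad1l1: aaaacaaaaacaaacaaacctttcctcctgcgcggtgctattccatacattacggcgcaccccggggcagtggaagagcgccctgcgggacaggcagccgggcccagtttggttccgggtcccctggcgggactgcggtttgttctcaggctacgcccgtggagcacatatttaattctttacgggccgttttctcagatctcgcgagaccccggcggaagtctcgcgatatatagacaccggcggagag
Cenpc1: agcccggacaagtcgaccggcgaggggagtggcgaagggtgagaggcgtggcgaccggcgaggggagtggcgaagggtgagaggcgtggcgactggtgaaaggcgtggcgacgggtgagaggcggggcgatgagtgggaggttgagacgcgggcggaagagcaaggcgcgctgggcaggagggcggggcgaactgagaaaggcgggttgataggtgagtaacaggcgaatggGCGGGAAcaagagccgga

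Other genes of the kinetochore and of mitosis, 40 measured of a list of 44, differed less as a list. Their median was 0.78. By the 2-fold rule 18 were higher and 1 lower, and 21 stayed within the limit. Among those within it were *Zwint* and *Cenpx* (both −0.17), *Spdl1* (0.35), *Itgb3bp* (0.68), *Cenps* (0.71) and *Trip13* (0.74). *Ccnb2*, a B-type cyclin of mitosis, was at 8.59 and 12.42 (14.3-fold higher). *Kif2c*, a kinesin that takes microtubules apart at the centromere, was 11.3-fold higher (6.60 and 10.09). *Spag5*, which encodes the spindle protein astrin, had the next measured difference (4.26 and 7.31), but with its young signal under the reference it is only shown to be at least 3.87-fold higher. *Kntc1*, named above with the checkpoint, was 6.73-fold higher. At the low end, the microtubule-stabilizing *Clasp1* was 2.06-fold lower (11.25 and 10.21), *Ndel1* and *Pafah1b1*, regulators of dynein, differed by −0.88 and −0.27, and the kinase *Nek7* by −0.25. *Cdk1*, the kinase of mitotic entry, was 6.33-fold higher and *Cdc20*, the target of Mad2, 4.32-fold higher.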

How the data were processed

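The authors deposited log2 signals, 1 for each probe set and array, obtained in Affymetrix Power Tools by RMA, which corrects background, normalizes between arrays and summarizes probes. Versions and the logarithm's base are not given in the sources used here. Base 2, the usual output of RMA, was assumed, and every fold rests on it. Over 22206 probe sets the median signal was 5.96 (young) and 5.92 (aged). RMA brings arrays to nearly one distribution, so a change shared by most genes would not show.

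No further normalization was applied. Of the probe sets, 19572 are annotated to a single gene symbol and were used, and 55 genes with several were averaged. Counts of genes require a difference of 2-fold and a signal above the background reference on 1 array or both. There were 1 young and 1 aged array, which permits no test, p-value or SE, and their number limits the precision. Bounds were computed from the reference of the young array. Chromosomes were read from probe set identifiers, and neighborhoods from the order of genes in RefSeq (GRCm38.p6). Phase lists came from Seurat 5.3.0. Scripts ran in Python 3.11.15 (pandas 2.3.3, numpy 2.4.6, matplotlib 3.10.9), and the steps were tested on simulated data.

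The 55 genes, their division into complexes and the lists were chosen with earlier results of these data known. Both signals are given for the genes with the largest and the smallest difference of each complex and for genes under the reference, and for other genes where a pair or a limit is discussed. Of the list of other mitotic genes, the 4 largest and 4 smallest measured differences are named. *Cdk1*, *Cdc20*, *Nsl1*, *Mis18a*, *Zwint*, *Cenpx*, *Spdl1*, *Itgb3bp*, *Cenps* and *Trip13* were added after their values were seen. Of the 44 genes of that list, 4 were not analysed here. Alternatives concerned the reference, scaling, fold limit, summary, probe sets and chromosomes.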

Additional observations from a re-analysis of the deposited data

How the results depend on the processing

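The median difference of the 55 genes, 2.05, lay between 1.67 and 2.08 over the alternatives of scaling, summary, probe sets and chromosomes. All were in the same direction. Each of the 55 genes has 1 probe set, so the alternative for probe sets could not change this median. The number at least 2-fold higher, 44, was between 37 and 48 under every alternative except a 4-fold limit, at which it was 28. The number at least 2-fold lower, 0, became 1 (*Cenpt*) with arrays centered on 12 expression reference (housekeeping) genes and 1 (*Cenpt*) with a limit of 1.5-fold. For these counts, setting signals under the reference to it was added after the data were seen. Centering on expression reference genes moved the median of all genes by −0.38. The share of higher genes among all genes at least 2-fold apart went from 48.9% to 24.8%. This centering subtracts a constant from each array, so the difference of every gene moved by the same amount. The distance of the group from all genes therefore could not change, which is no check of it. The same centering turned the sign of *Bub3* and *Zw10*, and the other scalings turned none. The medians of the complexes stayed within 0.51 of those reported in all but 2 of 88 alternative values. Both arose when genes under the reference on an array were left out. They were those of the fibrous corona (1.95, with 1 gene left) and of cytokinesis (1.76, with 3 genes left). Many of the 88 values could not move by 0.51, so this count is no measure of stability. The alternative for probe sets could change no complex. Centering each array on its median or on expression reference genes moved all complexes alike, by 0.03 and −0.38. Leaving out *Cdca3* and *Mad2l1* could change only the complexes that hold them. No paired analysis was possible because each group has 1 array, and for the same reason no replicate could be left out. At the dim end, 8 genes under the reference on the young array have bounds only.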

Other observations

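Some of the 55 genes start head to head with another gene, on opposite strands with starts at most 1000 bases apart. Of such partners that are not in the group, 9 were above the reference. Their median difference was 0.36, the lowest −0.94, and that of the 9 genes of the group beside them 1.79. *Prr11*, which starts 547 bases from *Ska2*, had the highest measured difference of the partners, at 4.54 and 6.29, but was under the reference on the young array, so that it is only shown to be at least 1.90-fold higher. The other 8 were less than 2-fold apart. *Cstf1*, *Ppwd1* and *Cmc2* differed by 0.36, 0.42 and 0.50, and *Derl2* by −0.34. *Nudt1* differed by 0.42 beside −0.16 for *Mad1l1*. *Nudcd2*, 224 bases from *Hmmr*, was at 14.26 and 13.57, a difference of −0.68 beside 2.46 for *Hmmr*. *Nol8*, 347 bases from *Cenpp*, differed by −0.94 beside 2.14. *Mrpl57*, which encodes a mitochondrial ribosomal protein, starts 76 bases from *Ska3* and differed by −0.28 beside 1.79. These genes were looked up after the differences of the group were known.

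Gene lists of neighboring functions are set beside the group as values only, since their difference from it could not be tested. Kinesin motors, 37 measured, had a median difference of 0.31 with 11 at least 2-fold higher and 2 at least 2-fold lower. The list mixes kinesins of transport and of mitosis, so its median does not describe the mitotic ones. The 11 higher ran from *Kif18a* (1.19) to *Kif2c* (3.50), with *Kif20b* (2.54) and *Kif11* (2.40) among them. *Kifc1* differed by 0.30. The 2 lower were *Kif1a* (−6.77) and *Kif12* (−1.10), both under the reference on the aged array. *Kif2c*, *Kif23* and *Kif20a* are also on the list of other mitotic genes. Genes of replication origins and forks, 45 measured, had a median of 0.89 with 17 at least 2-fold higher and 0 at least 2-fold lower.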
